A study of Mus musculus with 16 samples.

Results

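The genes described here encode the proteins of the cytosolic ribosome. A gene was a member when its annotated symbol was Rpl or Rps followed by a number, with at most 1 further letter and 1 further digit, or was Rplp0, Rplp1, Rplp2 or Rpsa; the Rps6k kinases were left out, and each gene was read from its brightest probe. This gave 63 genes with 81 probes, out of 16593 genes with a probe on the array. Of these, 58 genes cleared the background limit on 2 or more of the 16 arrays and were tested, 23 of the small and 35 of the large subunit. The other 5 (Rpl17, Rplp2, Rpl39l, Rps23 and Rpl3l) were not, Rplp2 passing on 1 array and the rest on 0, so they have no tested value. Ribosomal protein genes with no probe under their symbol in the annotation used, among them Rpl7 and Rpl11, are not analysed here.

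RNA came from CD4 T cells of C57/BL6 mice that were WT or Erk2 deficient, Erk2 being a mitogen-activated protein kinase of the pathway below the T cell receptor. Each genotype was measured as control cells at day 0, after 3 hr in Th0 (neutral) or iTreg (induced regulatory T cell) culture, and at day 1. The day 1 cultures were Th0, Th1, iTreg, and Th0 with TGF (transforming growth factor) for 1 hr or 3 hr. The series was made to study Th1 and iTreg differentiation under Erk2. Each of the 8 conditions has 1 array per genotype, 16 in all; the labels name neither the Erk2 allele, nor how it was removed, nor which animals or cultures the RNA came from, so p-values reflect no more than the scatter among these arrays, which may be technical. In bulk RNA, fewer cells of a type and less RNA per cell cannot be told apart.

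Cytosolic ribosomes consist of ribosomal RNA and a fixed set of small-subunit (Rps) and large-subunit (Rpl) proteins, each usually present as 1 copy. Their mRNAs are among the most abundant in a cell and typically begin with a terminal oligopyrimidine (TOP) tract, a run of C and U through which the mTOR pathway controls their translation. T cells that leave the resting state enlarge and make ribosomes before they divide. A few tested members are paralogues of another ribosomal protein gene: Rpl22l1 of Rpl22, Rps27l of Rps27 and Rpl7l1 of Rpl7.

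A pyrimidine tract at the start is typical of these mRNAs, and 3 tested members (Rps27l, Rpl22l1 and Rpl7l1) are paralogues of another ribosomal protein gene. The stretch from 85 bases before to 15 bases after the annotated start is therefore shown for those paralogues, for the namesakes Rpl22 and Rps27, and for 3 members that fell or dipped (Rps6, Rps10 and Rpl27a). Sequences are from RefSeq on GRCm38.p6, 5′ to 3′ on the gene's strand, using the first listed start of each gene. Capitals mark 4 pyrimidine words on the gene's strand (the word CTTTCC, the word CTTCCT, the word CTCTTT and the word CTTTTC). They also mark, on either strand, the core CCGGAAG bound by ETS factors and the core AAGATGG bound by the factor YY1. The pyrimidine words can overlap each other, as in Rps10, and CTTCCT can overlap the reverse of the ETS core.
Rps6, chr4:86857353-86857452, minus strand: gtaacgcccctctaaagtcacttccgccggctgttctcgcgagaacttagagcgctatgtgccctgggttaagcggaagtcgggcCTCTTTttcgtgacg
Rps10, chr17:27635230-27635329, minus strand: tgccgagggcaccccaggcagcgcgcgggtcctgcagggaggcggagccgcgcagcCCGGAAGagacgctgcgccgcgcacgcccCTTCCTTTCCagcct
Rps27, chr3:90213634-90213733, minus strand: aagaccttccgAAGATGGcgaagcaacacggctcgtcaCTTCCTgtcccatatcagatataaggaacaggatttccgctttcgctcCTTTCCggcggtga
Rps27l, chr9:66946001-66946100, plus strand: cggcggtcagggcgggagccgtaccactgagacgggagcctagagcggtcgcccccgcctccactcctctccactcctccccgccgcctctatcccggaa
Rpl22, chr4:152325641-152325740, plus strand: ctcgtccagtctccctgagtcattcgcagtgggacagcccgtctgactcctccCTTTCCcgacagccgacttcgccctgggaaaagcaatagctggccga
Rpl22l1, chr3:28805423-28805522, plus strand: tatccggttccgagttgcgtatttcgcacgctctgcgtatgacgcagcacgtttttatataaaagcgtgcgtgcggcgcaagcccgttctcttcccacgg
Rpl27a, chr7:109519110-109519209, plus strand: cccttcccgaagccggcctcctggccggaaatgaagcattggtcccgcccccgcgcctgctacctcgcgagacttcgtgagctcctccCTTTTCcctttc
Rpl7l1, chr17:46782642-46782741, minus strand: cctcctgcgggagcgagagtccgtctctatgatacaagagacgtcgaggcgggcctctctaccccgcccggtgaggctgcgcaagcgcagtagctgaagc
At least 1 of the 4 pyrimidine words stood on the gene's strand in 77.8% of the 54 members with a RefSeq promoter entry (250 bases before to 50 after the start) and in 42.3% of all 27025 genes with one. On the opposite strand the shares were 44.4% and 44.0%. The ETS core, on either strand, was in 38.9% of members and 9.12% of all genes, and the YY1 core in 16.7% and 6.48%. Among the sequences above, the 3 paralogue genes hold 0 pyrimidine words, and Rps6, Rpl22 and Rpl27a hold 1 each. The words are not a measure of the tract itself. Rpl22l1, which holds 0, has an unbroken run of pyrimidines just after its annotated start, and the word in Rpl22 lies before the start. A match is a description of the letters in this window, not a binding site.

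Array medians lay between 62.6 and 71.1 intensity units, and 12163 to 12708 probes were above background. All 9 T cell markers with a probe were tested, with a summed normalized intensity of 50340 and 52598 at day 0, 39927 to 50405 at 3 hr and 23205 to 35745 at day 1. Myeloid markers (4 of 7 with a probe were kept) summed to 2590 and 3616 at day 0, 1353 to 2893 at 3 hr and 390 to 798 at day 1, and their part in the time differences below was not tested. Some arrays stood apart. The Erk2 deficient day 1 iTreg array lay at 17.1 on the first principal component, against 30 to 35.1 for the other day 1 arrays. The summed red cell markers were 604 in WT and 5024 in Erk2 deficient cells at day 0, but 5557 and 5659 in WT and 569 and 583 in Erk2 deficient cells at 3 hr, the reverse order; at day 1 WT was again the higher, at 360 to 457 against 134 to 279. The labels were kept, and genotype results that use the day 0 pair are also given without it. WT arrays hold the odd and Erk2 deficient arrays the even positions of both chips, and an effect of position cannot be told apart from genotype.

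Most members sat at the top of the intensity scale. Of the 58, 31 had a mean log2 level of 14 or more, and they made up 31 of the 65 tested probes in that range. The highest raw intensity on an array was 29003 to 34342, and 31 to 34 members exceeded 50% of it. Quantile normalization gives every array the same distribution, so each rank has the same value on every array, while a probe can still change rank. Its part in the size of the changes below was not tested. Members above 14 moved by −0.16 to 0.12 on the log2 scale from day 0 to 3 hr, and all 13 calls of that comparison were among the 27 dimmer members. From day 0 to day 1 Th0 they moved by −0.43 to 0.23. In that comparison 8 of the 31 were called, beside 16 of the 27 dimmer members and 60.0% of all tested probes. The Spearman correlation between level and size of change was −0.53 at 3 hr and −0.45 for day 1 Th0 against day 0 (n = 58 genes, which share the arrays). Whether the brightest probes were saturated was not tested, since the files carry no such flag.

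In the raw data, before normalization, the members' share of an array's total intensity fell with time. It was 9.17% in WT and 9.34% in Erk2 deficient cells at day 0, 8.32% to 8.89% on the 4 arrays at 3 hr and 7.25% to 7.98% on the 10 arrays at day 1. The 3 ranges do not overlap, and the highest day 1 value is that of the Erk2 deficient iTreg array. After quantile normalization the shares were 8.14% and 8.15%, 7.94% to 8.17%, and 7.41% to 7.85%, so that day 0 and 3 hr overlap and day 1 stays below both.

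**Figure D1:**
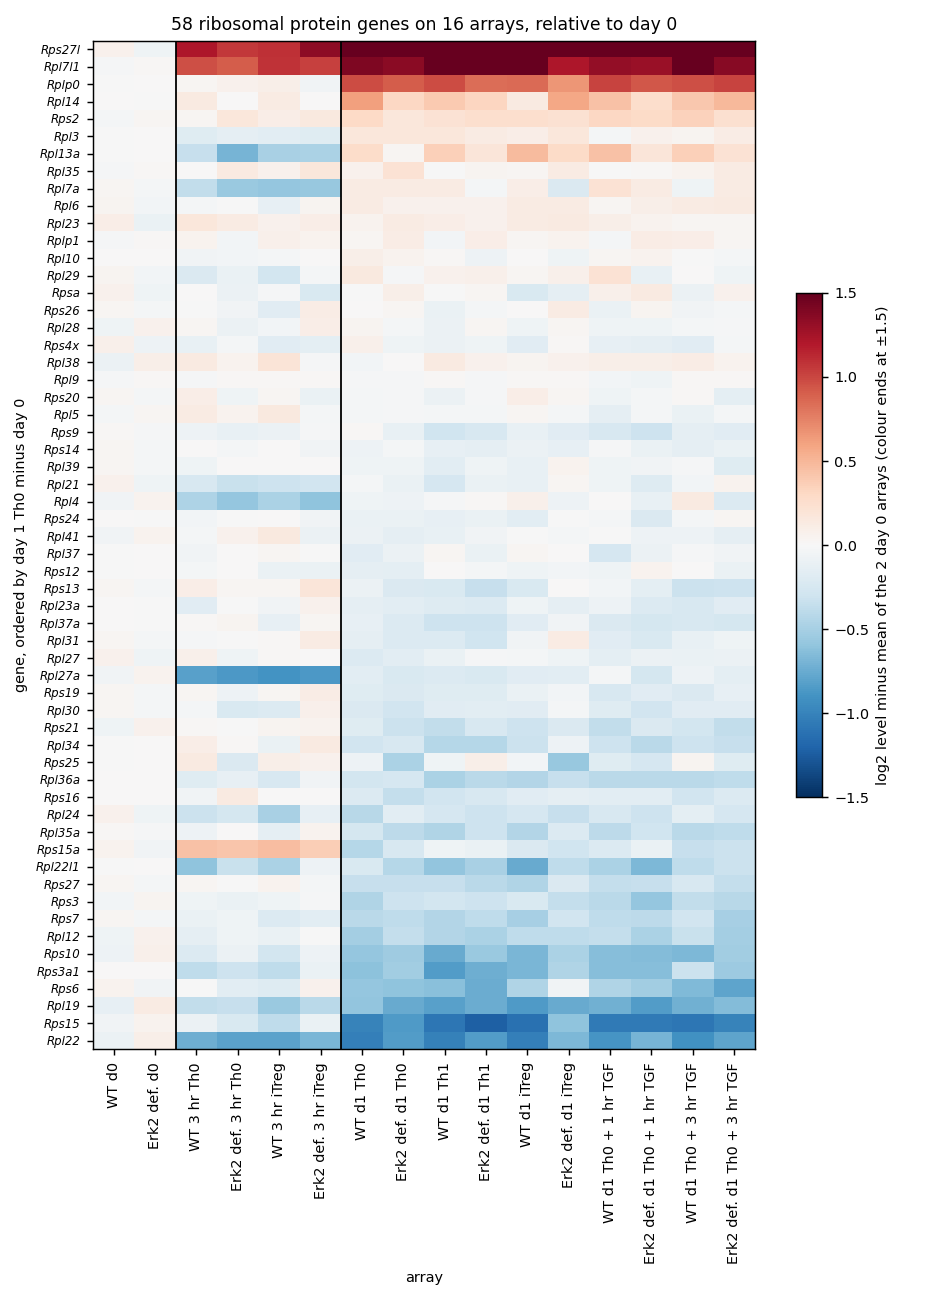
Log2 level of the 58 tested ribosomal protein genes (rows, ordered by day 1 Th0 minus day 0) on each of the 16 arrays (columns), minus the mean of the 2 day 0 arrays; black lines separate day 0, 3 hr and day 1. Rps27l and Rpl7l1 are high from 3 hr on, Rplp0 at day 1 only, Rpl27a is low at 3 hr only, and most rows stay near 0.

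The first comparison set the 3 hr cultures against day 0. After 3 hr the paralogue genes Rps27l and Rpl7l1 were 2.26-fold and 1.99-fold higher, and Rpl27a, Rpl22, Rpl4, Rpl7a and Rpl13a were 1.42-fold to 1.81-fold lower, while 45 members did not pass. Of 58 members, 3 were higher and 10 lower (limma, adjusted p under 0.05), or 22.4%, against 49.3% of all 14509 tested probes (24.5% higher and 24.7% lower). The median member changed by −0.03 and the median size of change was 0.07, against 0.22 over all probes. Of the small subunit's 23 members 2 were higher and 1 lower, and of the large subunit's 35, 1 was higher and 9 lower. Cyclic loess normalization gave 3 higher and 50 lower, with a median of −0.48; the 3 rises and 7 of the 10 falls were called under all 5 normalizations tried.

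Rps27l, a paralogue of the small-subunit zinc-finger protein Rps27, had log2 levels of 12.08 in WT and 11.94 in Erk2 deficient cells at day 0. At 3 hr it read 13.22 and 13.07 in Th0 and 13.10 and 13.35 in iTreg culture, WT first. All 3 hr arrays were above both day 0 arrays, and the difference was 1.18 (SE 0.0968, adjusted p = 6.95e-08). Its namesake Rps27 was at 14.46 and 14.39 at day 0 and between 14.40 and 14.48 at 3 hr. Those groups overlap (difference 0.01, SE 0.0803, adjusted p = 0.902); cyclic loess turns this difference to −0.48.

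Rpl7l1, the paralogue of the large-subunit protein Rpl7, read 9.59 and 9.63 at day 0, 10.58 and 10.52 in 3 hr Th0 and 10.69 and 10.63 in 3 hr iTreg culture. Again no array overlapped (difference 1.00, SE 0.0782, adjusted p = 4.19e-08), and its dimmer probe was higher by 0.60 (adjusted p = 2.95e-05). Rps15a, a small-subunit protein, rose from 7.54 and 7.43 to between 7.85 and 7.95 (difference 0.42, SE 0.0792, adjusted p = 0.000329). Read from the brightest probes, these 3 were the only members called higher at 3 hr. The dimmer Rps19 probe was also higher, by 0.34 (adjusted p = 0.00355), while the brightest Rps19 probe changed by 0.02 (adjusted p = 0.822).

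Rpl27a, a large-subunit protein, had the largest fall at 3 hr among the 58 members. Its level was 10.89 in WT and 10.99 in Erk2 deficient cells at day 0, 10.12 and 10.08 in 3 hr Th0, and 10.04 and 10.08 in 3 hr iTreg culture (difference −0.86, SE 0.0779, adjusted p = 2.01e-07). The groups lie far apart compared with the gap between genotypes, but the dimmer Rpl27a probe changed by −0.09 (adjusted p = 0.433). Rpl22, a large-subunit protein needed in mice for the development of αβ T cells, went from 10 and 10.18 to between 9.29 and 9.40 (difference −0.75, SE 0.0819, adjusted p = 1.39e-06). Its paralogue Rpl22l1 went from 10.09 and 10.11 to between 9.50 and 10.02 (difference −0.37, SE 0.117, adjusted p = 0.0156), a call kept under 3 of 5 normalizations. Both were lower on all 4 arrays at 3 hr, Rpl22l1 least in Erk2 deficient iTreg culture.

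Further large-subunit genes fell: Rpl4 by 0.53 (SE 0.087, adjusted p = 9.35e-05), Rpl7a by 0.52 (SE 0.0916, adjusted p = 0.000194) and Rpl13a by 0.51 (SE 0.0845, adjusted p = 0.000112). The dimmer Rpl4 probe, however, changed by −0.09 (adjusted p = 0.408). Rpl19 fell by 0.42 (adjusted p = 0.000624), and the dim Rpl21 fell on both of its probes, by 0.29 and 0.34. The remaining falls on brightest probes were those of Rpl24 (−0.30) and Rps3a1 (−0.29). For Rpl23 the probes changed by 0.12, −0.06, −0.81 and −0.13 from the brightest to the dimmest (adjusted p of 0.214, 0.603, 7.31e-07 and 0.135). The dimmer Rps24 probe changed by −0.26 (adjusted p = 0.0469) and the brightest by −0.02 (adjusted p = 0.825).

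**Figure D2:**
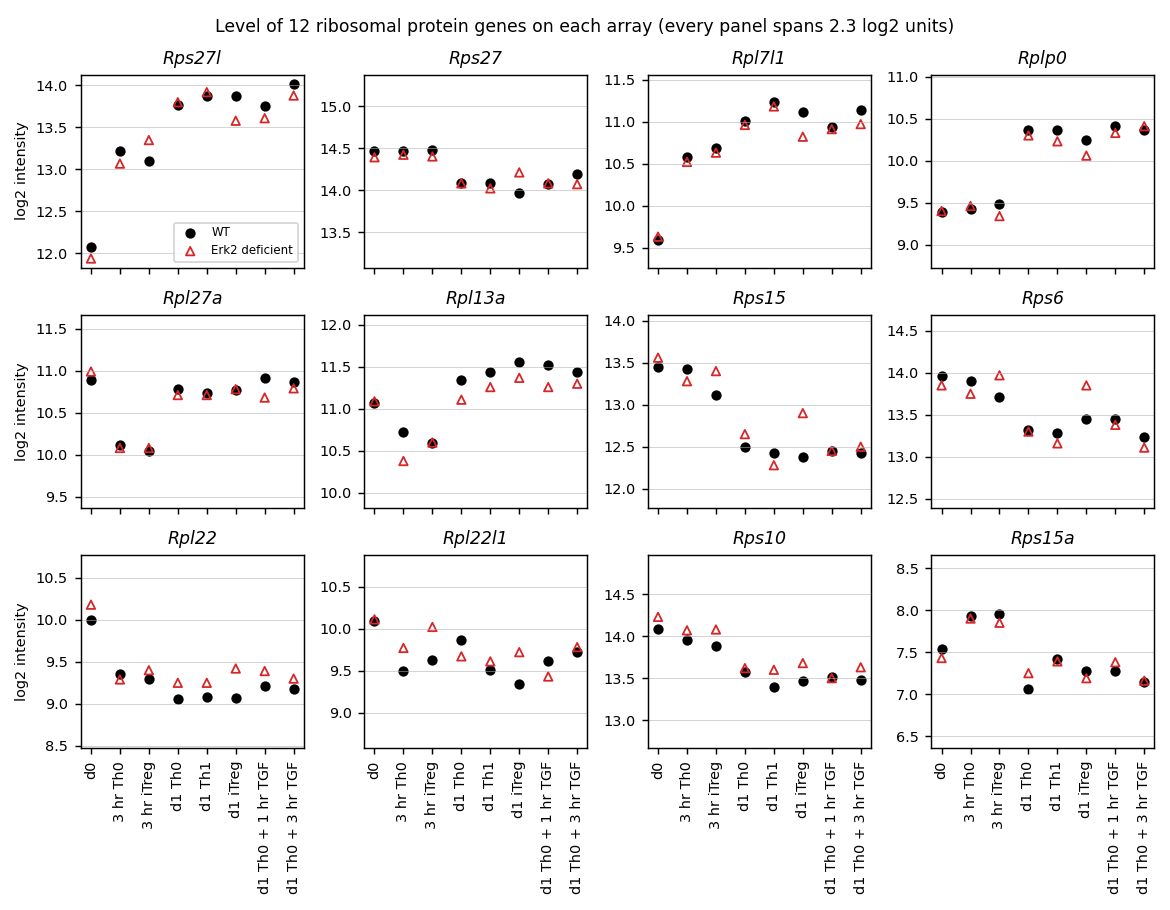
Log2 intensity (y axis, 2.3 log2 units in every panel) of 12 members in the 8 conditions (x axis), WT as filled circles and Erk2 deficient as open triangles, 1 array each. Rps27l and Rpl7l1 step up at 3 hr and again at day 1, Rpl27a and Rpl13a dip at 3 hr, and Rps15a is higher at 3 hr and lower at day 1.

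The second comparison followed Th0 culture from 3 hr to day 1. Genes that had dipped rose again (Rpl27a, Rpl13a, Rpl7a, Rpl4), Rplp0 rose for the first time, and mostly small-subunit genes fell (Rps15, Rps15a, Rps6, Rps10). Of 58 members 9 were higher and 13 lower, 37.9% against 53.8% of all tested probes (26.4% higher, 27.4% lower), with a median of −0.07. Of the small subunit's 23 members 1 was higher and 9 lower, and of the large subunit's 35, 8 were higher and 4 lower; the difference between subunits was not tested. The split was 11 higher and 7 lower with no normalization, and 8 higher and 40 lower with cyclic loess. Under all 5 normalizations 8 members stayed called higher and 7 called lower.

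Rplp0, the stalk protein that carries the acidic proteins P1 and P2 on the large subunit, was level at first and then rose. It read 9.39 and 9.40 at day 0, between 9.34 and 9.48 on the 4 arrays at 3 hr, and between 10.06 and 10.41 (median 10.34) on the 10 arrays at day 1. No day 1 array overlapped an earlier one, and day 1 Th0 exceeded 3 hr Th0 by 0.89 (SE 0.087, adjusted p = 3.36e-07). Its dimmer probe rose by 0.68 (adjusted p = 0.000619). The stalk protein Rplp1 was at 14.63 and 14.66 at day 0 and 14.67 and 14.76 in day 1 Th0, a difference of 0.07 from day 0 (adjusted p = 0.517) that cyclic loess turns to −0.85.

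Rpl13a, Rpl27a, Rpl7a and Rpl4 rose by 0.68, 0.65, 0.59 and 0.45 between 3 hr and day 1 of Th0 culture (SE 0.0976, 0.09, 0.106 and 0.1; adjusted p at most 0.00122). The dimmer probes of Rpl27a and Rpl4 changed by 0.22 (adjusted p = 0.0858) and 0.30 (adjusted p = 0.0133). On its brightest probe Rpl27a then stood at 10.78 in WT and 10.71 in Erk2 deficient cells, below its day 0 values by 0.19 (adjusted p = 0.0752). Rpl13a ended at 11.35 and 11.11, and was not called against day 0 either. The comparisons of 3 hr with day 0 and of day 1 with 3 hr share the 3 hr Th0 arrays, so a low reading there alone would move both. The 3 hr iTreg arrays, which the Th0 comparison does not use, read 10.04 and 10.08 for Rpl27a and 10.59 and 10.60 for Rpl13a.

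Rps27l rose further, to 13.77 and 13.80 in day 1 Th0 (difference 0.64 from 3 hr Th0, SE 0.112, adjusted p = 0.000149), and Rpl7l1 to 11.01 and 10.96 (0.43, SE 0.0903, adjusted p = 0.000752). The dimmer Rpl7l1 probe changed by 0.21 (adjusted p = 0.0904). Rpl14 rose by 0.39 (adjusted p = 0.0201), but its probe was above background on only 1 of the 2 day 0 arrays and 1 of the 2 arrays of each 3 hr culture. Rpl3, at the peptidyl transferase centre, was higher by 0.33 (adjusted p = 0.00237), which becomes −0.03 under cyclic loess.

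Of the falls, Rps15 was the largest. It read 13.42 and 13.28 in 3 hr Th0 and 12.50 and 12.65 in day 1 Th0 (difference −0.78, SE 0.131, adjusted p = 0.000102). Rps15a fell back from 7.93 and 7.90 to 7.06 and 7.25, below its day 0 level. Rps6, the protein phosphorylated by S6 kinases below mTOR and ERK, went from 13.90 and 13.75 to 13.32 and 13.30 (difference −0.51, SE 0.123, adjusted p = 0.00219). Rps10, Rps27, Rpl12 and Rps16 fell by 0.41, 0.36, 0.33 and 0.32, and Rps7, Rps3, Rps21, Rpl34, Rpl19 and Rpl35a by 0.26 to 0.32.

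In iTreg culture the same interval gave 9 members higher and 12 lower, 36.2% against 51.7% of all tested probes (25.2% higher, 26.5% lower), with a median of −0.05 (10 higher and 6 lower with median scaling, 11 and 3 with no normalization, 8 and 39 with cyclic loess). The 3 hr and day 1 iTreg arrays are on different chips, and with 1 chip each, chip and time cannot be told apart there. Rpl13a rose by 0.87 (SE 0.0976, adjusted p = 1.81e-06), Rplp0 by 0.75 (adjusted p = 2.57e-06), Rpl27a by 0.71 (adjusted p = 6.75e-06), and Rpl4 and Rpl7a by 0.54 and 0.52. The dimmer probes of Rpl27a, Rpl4 and Rplp0 changed by −0.04, 0.09 and 0.30 (adjusted p = 0.776, 0.49 and 0.0881). Rpl7l1 rose by 0.31 on its brightest probe (adjusted p = 0.00822) and fell by 0.25 on its dimmer one (adjusted p = 0.0482), so its direction in this interval depends on the probe. Rps15a, Rps15 and Rps10 fell by 0.67, 0.62 and 0.41, close to their falls in Th0 culture, whereas Rps6 changed by −0.19 (adjusted p = 0.222), its day 1 iTreg levels being 13.45 in WT and 13.85 in Erk2 deficient cells. The difference between the 2 cultures' changes was not tested.

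Over the whole first day (day 1 Th0 against day 0, both on the same chip), Rps27l was 3.43-fold, Rpl7l1 2.59-fold and Rplp0 1.91-fold higher, and Rpl22 and Rps15 were each 1.91-fold lower. In all 5 members were higher and 19 lower, 41.4% against 60.0% of all tested probes (30.5% higher, 29.5% lower), with a median of −0.12. The small subunit had 2 higher and 11 lower of 23 (median −0.20) and the large subunit 3 higher and 8 lower of 35 (median −0.07). Cyclic loess gave 4 higher and 49 lower (median −0.86), no normalization 8 and 10, and leaving out the WT day 0 array 4 and 11. Called under all 5 normalizations were 4 rises (Rps27l, Rpl7l1, Rplp0, Rpl14) and 10 falls (Rpl22, Rps15, Rpl19, Rps6, Rps10, Rpl12, Rps7, Rps3, Rps27 and Rps16).

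**Figure D3:**
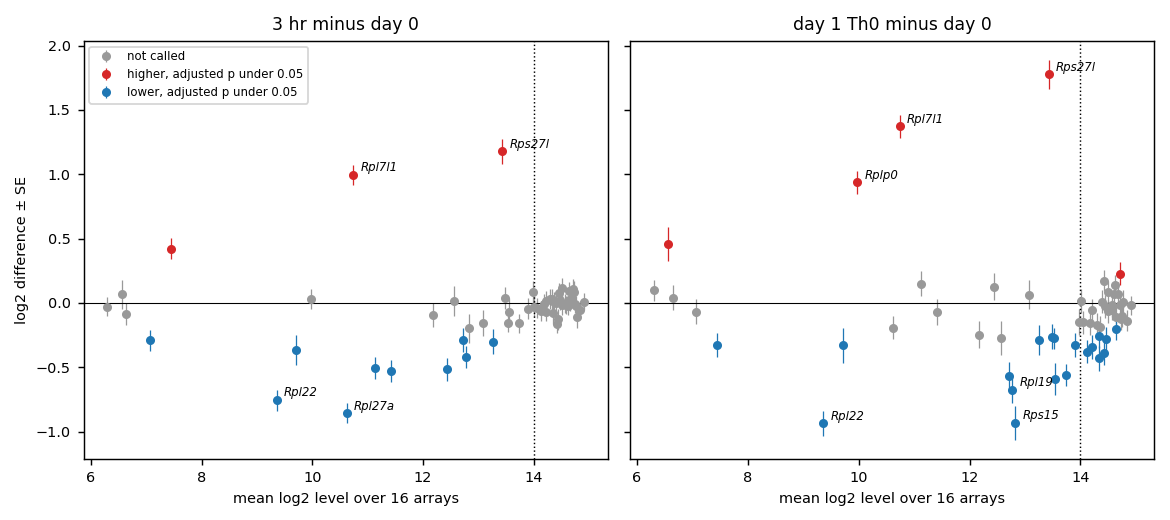
Log2 difference with its SE (y axis) against mean log2 level (x axis) of the 58 members, for 3 hr minus day 0 and day 1 Th0 minus day 0; red and blue points passed the adjusted p of 0.05, and the dotted line marks a level of 14. Under quantile normalization members above 14 lie between −0.16 and 0.12 at 3 hr, where 0 of 31 were called. At day 1 they lie between −0.43 and 0.23, and 8 of 31 were called. Cyclic loess puts most of them below 0.

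Rps27l reached 13.77 and 13.80 against 12.08 and 11.94 at day 0 (difference 1.78, SE 0.112, adjusted p = 1.72e-09). Rpl7l1 gained 1.37 (SE 0.0903, adjusted p = 2.73e-09) and Rplp0 0.94 (SE 0.087, adjusted p = 1.29e-07). All 10 day 1 arrays lay above both day 0 arrays for these 3 genes. Rps2, a small-subunit protein, was called higher by 0.23 (adjusted p = 0.0353), but the other 4 normalizations did not call it higher, and cyclic loess gave −0.70.

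Rpl22 read 9.06 in WT and 9.25 in Erk2 deficient day 1 Th0 cells against 10 and 10.18 at day 0 (difference −0.94, SE 0.0946, adjusted p = 3.29e-07), and over all 10 day 1 arrays it lay between 9.06 and 9.42. Rpl22l1 differed by −0.33 (adjusted p = 0.0449), called under 3 of 5 normalizations, so both genes of this pair were lower, unlike the pair Rps27 and Rps27l. Rps27 fell to 14.08 on both arrays (difference −0.34, SE 0.0928, adjusted p = 0.00457). Rps15, Rpl19, Rps6, Rps3a1 and Rps10 fell by 0.93, 0.68, 0.59, 0.57 and 0.56 (adjusted p at most 0.000595).

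Several well-known members were not called against day 0 in either comparison. Rpl5, which with Rpl11 and 5S ribosomal RNA binds Mdm2, read 14.42 and 14.49 at day 0 and 14.42 and 14.44 in day 1 Th0. Rpsa, also known as the laminin receptor, was dim at 6.44 to 6.80 over all arrays and differed by 0.04. For Rpl10, Rps4x, Rpl39, Rpl41 and Rpl3 the day 1 differences from day 0 were 0.07, 0.01, −0.07, −0.11 and 0.17. Under cyclic loess those of Rpl10, Rps4x and Rpl3 became −0.84, −0.93 and −0.73, and those of Rpl5, Rpl39 and Rpl41 −0.92, −0.98 and −1.05, so no direction is given for these 6 genes. The highest probe levels were those of Rpl9, Rps12 and Rps4x and the lowest tested ones those of Rpl6, Rpl14 and Rpsa, which describes the probes and not the amounts of mRNA.

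How strongly the counts depend on normalization is shown by the bars of calls under 5 normalizations. Over the 65 tested probes with a mean of 14 or more, members or not, the median of day 1 Th0 minus day 0 was −0.05 with quantile normalization, −0.18 with median scaling, −0.11 with none, −0.17 in the authors' normalized values and −0.97 with cyclic loess. For the 873 probes from 11 to 13 the values were 0.27, 0.58, 0.66, 0.03 and 0.06. The all-probe median moved by at most 0.1 except with no normalization, where it was 0.14.

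**Figure D4:**
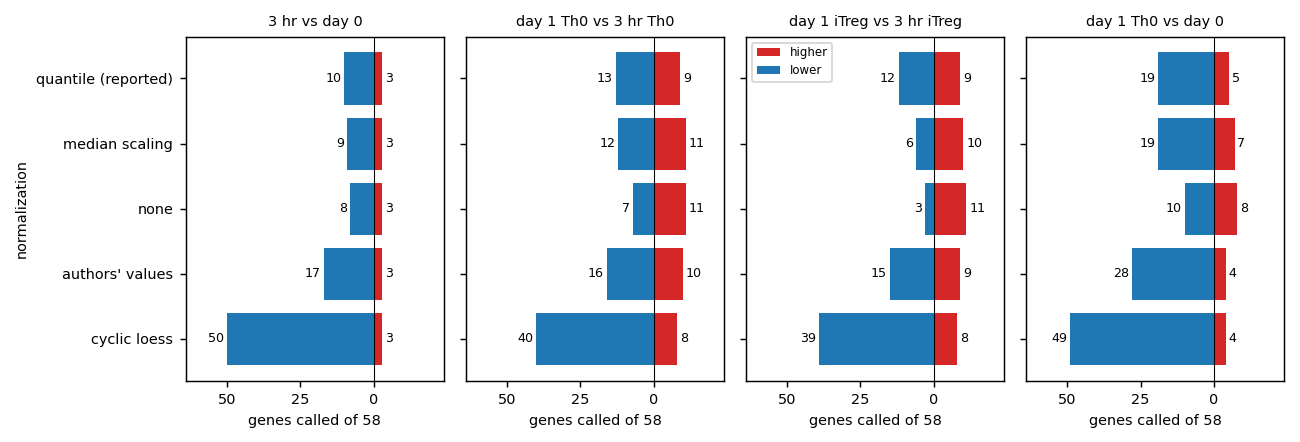
Number of the 58 members called higher (red, to the right of 0) or lower (blue, to the left) in 4 time comparisons (panels) under 5 normalizations (rows). The rises stay between 3 and 11 under every normalization, while the falls reach 50, 40, 39 and 49 under cyclic loess.

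Of the 58 tested members 13 had more than 1 tested probe, giving 15 further probes. In day 1 Th0 against day 0, 6 of the 15 were higher and 4 lower, beside 60.0% of all tested probes called, and 6 of these 10 were called where the gene's brightest probe was not. The dimmer Rpl38 probe, for a large-subunit protein, read 9.32 and 9.41 at day 0, 9.42 to 9.66 at 3 hr and 11.18 to 11.58 at day 1. It differed by 1.87 (SE 0.0925, adjusted p = 1.32e-10), while the brightest Rpl38 probe, at 14.57 and 14.75 at day 0 and 14.62 and 14.67 in day 1 Th0, did not pass. For Rps24 the dimmer probe went from 8.76 and 9.08 at day 0 through 8.59 to 8.71 at 3 hr to between 9.78 and 10.27 at day 1 (1.12, adjusted p = 5.48e-07), and the brightest stayed between 14.60 and 14.84 on all arrays. Rps19, whose human counterpart is mutated in some families with Diamond-Blackfan anaemia, was the only gene with opposite calls, its dimmer probe being higher by 1.36 (adjusted p = 9.76e-09) and its brightest lower by 0.20 (adjusted p = 0.0455). For Rpl23 the probes differed by 0.08, −0.44, −0.32 and 0.08 from the brightest to the dimmest, with adjusted p of 0.428, 0.000721, 0.0083 and 0.416. Which transcripts each probe detects, pseudogene transcripts included, was not tested.

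Other genes of ribosome production were taken from lists. Of all tested probes 49.3% were called at 3 hr against day 0, 24.5% higher and 24.7% lower. In day 1 Th0 against day 0 the share was 60.0%, 30.5% higher and 29.5% lower. Of 67 tested mitochondrial ribosomal protein genes 61 were higher and 1 lower in day 1 Th0 against day 0 (median 0.87; 53 to 64 higher over the 5 normalizations), beside 5 and 19 of the 58 members. The mitochondrial genes and the members were not matched for intensity, and most members sat at the top of the scale. Of 14 ribosomal protein chaperones and late assembly factors 11 were higher and 1 lower at 3 hr, and 10 and 1 at day 1. Grwd1, a chaperone of Rpl3, rose by 1.27 at 3 hr, Pno1, a factor of small-subunit maturation, by 0.98, and Eif6, which keeps the subunits apart, by 0.86. In contrast Pdcd2 fell by 0.47.

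Of 13 regulators of ribosomal protein genes 7 were higher and 3 lower at 3 hr, beside 49.3% of all tested probes called. Myc, a transcription factor that drives ribosome production, rose by 2.09, Gabpb1, a subunit of the ETS-family factor GABP, by 1.54, and Rheb, the small GTPase that activates mTOR, by 1.37. From 3 hr to day 1 Th0, 2 of the 13 were higher and 7 lower, beside 53.8% of all tested probes called. Myc changed by −0.72 and Rheb by −1.34 in that interval. Of 20 other TOP mRNAs 3 were higher and 9 lower at 3 hr, beside the same 49.3%. At day 1 against day 0, 9 were higher and 5 lower, beside 60.0% of all tested probes called. Cyclic loess turned this day 1 split to 5 and 10. Eef2 differed by −0.94 and Npm1 by 0.85 at day 1. Among 4 S6 kinases 1 was higher and 2 lower at day 1, again beside 60.0%. The name rule leaves out 2 tested ribosomal protein genes. Fau, whose product includes the small-subunit protein S30, was lower by 0.96 (adjusted p = 2.11e-06). The other, Rpl36al, differed by −0.01 (adjusted p = 0.923).

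Cultures were next compared at the same time. At 3 hr, iTreg against Th0 culture gave 0 of 58 members and 0% of all probes (limma; 0 members and 526 probes at an unadjusted p under 0.05), with differences of −0.12 to 0.19. Day 1 iTreg against Th1, both on 1 chip, gave 1 member of 58 (1.72%) against 8.53% of all probes (4.76% higher, 3.77% lower). It was Rps6, at 13.45 in WT and 13.85 in Erk2 deficient iTreg cells and 13.28 and 13.16 in Th1 cells (difference 0.43, SE 0.123, adjusted p = 0.0438). All iTreg values lay above the Th1 values, but the difference was 0.17 in WT and 0.68 in Erk2 deficient cells, the latter on the array that stood apart. Median scaling and no normalization each called Rps25 and Rpl7l1 lower in place of Rps6, and without the WT day 1 iTreg array 5 members were called.

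Between 3 hr and 1 hr of TGF limma called 0 of 58 members and 0.186% of probes, Rps27l at 0.27 (adjusted p = 0.519) having the largest difference. At an unadjusted p under 0.05, 2 members and 1236 of 14509 probes passed. Comparisons of other day 1 cultures with Th0 cross chips, so chip and culture cannot be told apart. Limma called 0 members in Th1 against Th0 (0.110% of probes), 0 in iTreg against Th0 (6.59%) and 0 in the TGF pulses against Th0 (0.607%). At an unadjusted p under 0.05, 3 members and 774 of 14509 probes passed in Th1 against Th0. The counts were 4 and 2786 in iTreg against Th0, and 1 and 1009 in the TGF pulses against Th0. These comparisons share the Th0 arrays.

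The last comparisons set Erk2 deficient against WT cells, and the differences were small. Over all 8 pairs limma called 0 of 58 members, against 3.47% of all probes. At an unadjusted p under 0.05, 2765 of 14509 probes passed, among them 4 members (Rpl13a, Rpl22, Rps10 and Rps25). The differences of the 58 ran from −0.18 to 0.15, with a median size of 0.03 against 0.05 over all probes. Rpl13a was lower by 0.17 (SE 0.0488, adjusted p = 0.076), and without the day 0 pair by 0.19 (adjusted p = 0.0306), the only member then called. At 3 hr, over 2 pairs, 0 members were called against 3.47% of probes. At an unadjusted p under 0.05, 2366 of 14509 probes passed, among them 1 member. This was Rpl22l1, at 9.50 and 9.63 in WT and 9.77 and 10.02 in Erk2 deficient cells (difference 0.33, SE 0.118, adjusted p = 0.151), which passed without the day 1 iTreg pair (adjusted p = 0.026).

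At day 1, over 5 pairs, 1 of 58 members was called (1.72%), against 6.35% of all probes (3.48% higher, 2.87% lower). Rpl22 read 9.06, 9.08, 9.07, 9.21 and 9.18 in WT cells in Th0, Th1 and iTreg culture and with TGF for 1 hr and 3 hr. In Erk2 deficient cells it read 9.25, 9.25, 9.42, 9.39 and 9.30 in the same order. All Erk2 deficient values were above all WT values, and the difference was 0.20 (SE 0.057, adjusted p = 0.0462, higher in 5 of 5 pairs), or 1.15-fold. The call is close to the threshold: it was made in 10 of 37 alternatives, with differences of 0.16 to 0.23 and adjusted p of 0.0374 to 0.126. Rpl13a was lower in 5 of 5 pairs, by −0.25 to −0.14 (mean −0.20, SE 0.0597, adjusted p = 0.0561), and was called in 9 of the 37.

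The genotype difference at day 1 was not called by limma to differ from that at 3 hr for any of the 58 members, against 1.25% of all probes. At an unadjusted p under 0.05, 3 members and 1699 of 14509 probes passed. For Rpl22 it was 0.20 at day 1 and 0.01 at 3 hr (difference 0.19, SE 0.107, adjusted p = 0.541), and for Rpl22l1 0.03 and 0.33 (difference −0.30, SE 0.14, adjusted p = 0.418). In the day 1 iTreg pair 8 of 58 members (13.8%) differed by 0.3 or more, compared with 0 to 2 members in every other pair. Over all probes the share in that pair was 19.8%, and 5.02% to 15% in the other pairs. Rps15 at 0.52, Rps6 at 0.39 and Rps25 at −0.52 were among them, and the Erk2 deficient array of this pair is the one that stood apart on the first principal component.

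**Figure D5:**
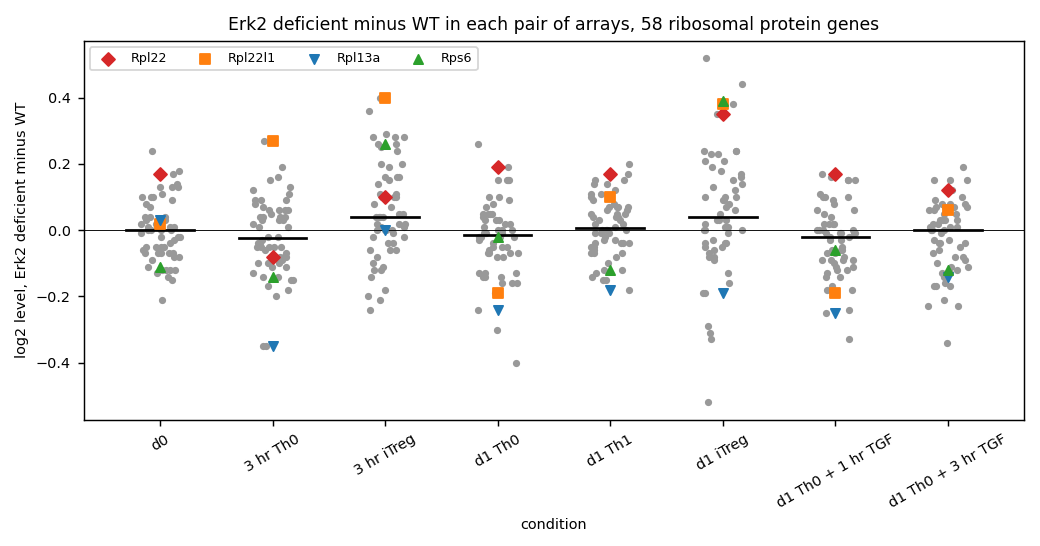
Erk2 deficient minus WT log2 level (y axis) of the 58 members (grey points, spread sideways at random) in each of the 8 pairs of arrays (x axis), with the median as a black bar and 4 genes in colour. Medians lie between −0.03 and 0.04, Rpl22 is above 0 in all 5 day 1 pairs and Rpl13a below 0, and the spread is widest in the iTreg pair of day 1.

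Of the lists around the ribosome, the regulators had 3 of 13 genes lower and 0 higher in Erk2 deficient cells at day 1: Mtor (−0.24, adjusted p = 0.0182), Eif4ebp1, a repressor of cap-dependent translation (−0.23, adjusted p = 0.0405), and Gabpa, the DNA-binding subunit of GABP (−0.23, adjusted p = 0.043). No chaperone or late assembly factor and none of the 4 S6 kinases was called at day 1. Of 67 mitochondrial ribosomal protein genes 2 were lower. These counts stand beside 6.35% of all tested probes called at day 1, 3.48% higher and 2.87% lower. At 3 hr, where 3.47% of probes were called, 1 of the 4 S6 kinases was lower, Rps6ka3 (−0.39, adjusted p = 0.0446). In the same comparison 1 mitochondrial ribosomal protein gene was higher, and no regulator, chaperone or late assembly factor was called. Markers of other cells also differed by genotype. At 3 hr 2 of 2 tested red cell markers were lower in Erk2 deficient cells (Hba-a1 at −3.44, Alas2 at −0.76). Of 4 tested myeloid markers 3 were lower and 0 higher there, with a median of −0.87. At day 1 the red cell gene Hba-a1 differed by −1.78, and the other red cell marker tested, Alas2, by −0.03. Of 4 tested myeloid markers 2 were higher (S100a8 by 0.71, S100a9 by 0.42) and 2 lower (Lyz1 at −0.60, Lyz2 at −0.35), with a median of 0.04. Of 4 tested markers of CD8 T cells and natural killer cells 2 were higher (Nkg7 by 0.77, Klrd1 by 0.31) and 0 lower. The summed T cell markers at 3 hr were 39927 and 43843 in WT and 48559 and 50405 in Erk2 deficient cells, though only 1 of the 9 was called there. At day 0 the order was the reverse, 52598 in WT and 50340 in Erk2 deficient cells. At day 1 the ranges overlapped, 23205 to 27522 in WT and 27341 to 35745 in Erk2 deficient cells. The part of these markers in the small differences above was not tested.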

How the data were processed

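Total RNA of 16 samples was labelled with biotin and hybridized to Illumina bead arrays, per the labels' protocols. The authors deposited a table of non-normalized probe intensity on a linear scale, without detection p-values or control probes, and a series matrix of normalized intensity; neither the scanner software nor the normalization method is given in the sources used here. Probes were named from the platform annotation (23978 of 25697 with 1 symbol, 0 with several).

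In limma 3.58.1 (R 4.3.3), normexp with an offset of 50 was applied to the deposited intensities, followed by quantile normalization and log2. A probe was above background when it passed the 99th percentile of a normal background centred on the mode of log2 intensity; probes above it on at least 2 of 16 arrays were kept (14509). Time and culture were tested in 1 fit of all arrays with condition and genotype as additive terms, genotype by stage in a fit with a genotype term for each of day 0, 3 hr and day 1 (lmFit and eBayes, Benjamini-Hochberg over all kept probes, adjusted p threshold 0.05). The day 1 and 3 hr genotype terms do not use the day 0 pair. The condition term pairs the WT and Erk2 deficient arrays.

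Members and gene lists were chosen with earlier results of these data known. The text names in each comparison up to 8 rises and 8 falls among called members, the paralogues and their namesakes, Rpl5, Rps6, Rpsa, Rplp0, Rplp1, Rpl41, Rps4x, Rpl10, the 3 brightest and 3 dimmest members, and up to 4 genes of a list; others were picked with their values in view. Alternatives were other background corrections, offsets and normalizations, the series matrix values, other filters, priors, array weights, other probe choices, single chips, and fits lacking 1 pair or 1 array.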

Additional observations from a re-analysis of the deposited data

Results flagged for a closer look

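Among 16 sets of 5 day 1 pairs examined for a pair far from the others, 2 had one; chance gives about 1 in 20. For Rps6 the Erk2 deficient minus WT difference was 0.39 in iTreg culture and −0.12 to −0.02 in the other 4 pairs, the iTreg pair holding the array that stood apart on the first principal component. For Rpl41 it was 0.06 in Th1 culture and −0.06 to −0.04 in the other 4, all small.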

How the results depend on the processing

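The genotype fits are paired by condition, and no further block could be fitted because the labels give no replicate numbers. Cyclic loess raised the members called to 53 (3 hr against day 0), 48 (day 1 against 3 hr, Th0), 47 (the same in iTreg) and 53 (day 1 Th0 against day 0), and the series matrix gave 20 at 3 hr, against 13, 22, 21 and 24. Cyclic loess turned these differences negative: Rps27 −0.48, Rpl5 −0.42, Rplp1 −0.44 and Rpl41 −0.50 at 3 hr; Rpl3 −0.027, Rplp1 −0.35, Rps4x −0.33 and Rpl10 −0.29 from 3 hr to day 1 in Th0; Rpl3 −0.017 and Rps4x −0.27 in iTreg; and Rps2 −0.70, Rpl3 −0.73, Rplp1 −0.85, Rps4x −0.93 and Rpl10 −0.84 over the first day. The dimmest probe turned Rpl27a to −0.04 and Rpl7l1 to −0.25 from 3 hr to day 1 in iTreg. The causes were not tested.

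For day 1 iTreg against Th1 (1 member), offset 16, the series matrix, no filter and chip 2 alone gave 0, median scaling, no normalization and a trended prior 2, and cyclic loess 3. For iTreg against Th0 (0), the dimmest probe gave 1. For genotype, array weights gave 1 over all conditions (0), chip 1 alone gave 1 at 3 hr (0), and at day 1 (1) no background correction, offset 16, median scaling, the series matrix and chip 2 alone gave 0, array weights and the mean of probes 2.

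Leaving out single arrays or pairs gave 9 to 14 calls at 3 hr, 17 to 23 and 14 to 23 from 3 hr to day 1 in Th0 and iTreg, and 15 to 25 over the first day, the 15 without the WT day 0 array. It gave 0 to 5 for iTreg against Th1, and 0 to 1 for iTreg against Th0 and for genotype over all conditions, at 3 hr and at day 1; the 5, and the 1 for iTreg against Th0, came without the WT day 1 iTreg array. Of 2110 alternatives for the 61 calls of named members, 1986 kept the direction and the call, 119 lost the call and 5 reversed. Dim members such as Rpl6 and Rpl14 lie near background, and the brightest near the top of the scale, which limits both.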
